A study of Homo sapiens with 8 samples.

Results

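The genes described here are 51 type I interferon-stimulated genes, read by symbol from a table of 28859 genes measured by RNA-seq in 8 libraries of T47D cells, an established human breast cancer line of luminal type. They were chosen by name, as genes known to be switched on by interferon, and not by their values in these libraries, although the list was drawn up with earlier results of these data known. Of the 51, 42 had a normalized count of 10 or more in 2 or more libraries and were tested, and 9 did not. A normalized count is a read count per gene divided by a library factor, so that libraries of different depth can be compared. Type I interferons are secreted cytokines that bind the receptor pair IFNAR1 and IFNAR2, whose kinases JAK1 and TYK2 phosphorylate STAT proteins, STAT2 among them. With IRF9 these form a complex that binds the interferon-stimulated response element (ISRE) in promoters and raises transcription of genes whose products detect viral RNA, block viral entry and replication, and modify proteins. In cultured tumour cells part of this program can run at a low level with no added interferon.

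Every cell group came from T47D and differed in the plasmid that the cells carried. The control plasmid, wild-type GATA3 and the truncated forms TR1 and TR2 were each represented by 2 libraries, and GATA3 was HA-tagged in the 3 GATA3 groups. GATA3 is a zinc finger transcription factor of luminal breast epithelium in which truncating mutations are frequent in breast cancer. The labels name no interferon or other treatment, no culture time and no clone, and do not say whether the 2 libraries of a group came from separate cultures. P-values therefore measure only the spread between these libraries, which may be technical.

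Reads on genes numbered 13292861 to 19572394 per library, and mitochondrially encoded genes took 7.11% to 8.50% of the counts. GATA3 itself was counted at 13726 and 12676 with the control plasmid, 13555 and 13833 with wild-type GATA3, 9506 and 8638 with TR1, and 10235 and 10588 with TR2, so the GATA3 plasmids did not show as a higher GATA3 count, and counts of plasmid and endogenous transcripts are summed. In the fit used below, GATA3 was called lower with TR1 than with the control (log2 fold change -0.54) and wild type (-0.60). It was also called lower with TR2 than with wild type (-0.40), but not than with the control (-0.34). The TR1 calls held in all settings and without any 1 library, whereas the TR2 call did not. The luminal markers ESR1, FOXA1, KRT8, KRT18 and EPCAM were high in every library (11 luminal markers summed to 146427 to 151756 in the control and wild-type, 155830 and 160588 in the TR2 and 174638 and 178544 in the TR1 libraries), whereas TFF1 stayed under a normalized count of 10. The sum does not describe each marker. Of the 10 tested, 2 were called higher and 3 lower with TR1 than with the control, where 4.91% of all genes were called higher and 5.69% lower. IL3RA, the 1 plasmacytoid dendritic cell marker in the table, had at most 3 reads in any library. The 6 leukocyte markers in the table summed to 54 to 91 reads per library, with up to 88 reads on 1 gene. The summed level of the 5 fibroblast markers in the table was 70.9 and 29.3 in the control, 54.9 and 45.6 with wild type, 113 and 163 with TR1 and 56.6 and 71.5 with TR2. COL1A2 was at 0 in every library and the matrix gene DCN had 0 reads in the control and wild-type libraries but 66 and 70 in the TR1 libraries. LUM, another of these markers, had 0 reads in the control, wild-type and TR2 libraries and a mean normalized count of 17.7 with TR1. It did not pass the filter, so no more than 1 TR1 library reached a normalized count of 10. The part of these markers in the results below was not tested. In these bulk libraries, fewer cells that express a gene and less RNA per cell cannot be told apart. The TR1 replicates also differed more from each other than other replicates did. Over 10379 genes, log2 differences within the TR1 pair had an SD of 0.381, whereas the pairs of control, wild-type and TR2 libraries had SDs of 0.168, 0.116 and 0.133.

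Promoter sequences in RefSeq (GRCh38.p14), from 250 bases before to 50 bases after the start, were found for 41 of the 51 genes. They are shown for 8 of the genes on which the values below turn, because the interferon complex described above binds the ISRE. A search on both strands for its core, spelled GAAA, any 2 bases and GAAA again, with overlapping matches allowed, found it in 26 of the 41 promoters (63.4%) and in 3.65% of all 27305 promoters of this length. There were 3 matches in 4 of the promoters, 2 matches in 11 and 1 match in 11. The core of the gamma-activated site, TTCNNNGAA, whose matches can overlap those of the ISRE core, was in 12 of the 41 (29.3%) against 7.88% of all promoters. The GATA letters AGATAA were in 5 of the 41 (12.2%) against 10.5% of all and 4.80% of the 9928 promoters of tested genes. For those 9928 the share was 2.63% for the ISRE core and 6.12% for the gamma-activated site. A match is a run of letters and was not tested as a binding site. The windows shown are IFI6 (chr1:27672143-27672442, minus strand), ISG15 (chr1:1013247-1013546, plus strand), IFIT1 (chr10:89392373-89392672, plus strand), IFIT5 (chr10:89414318-89414617, plus strand), LGALS3BP (chr17:78979874-78980173, minus strand), MX1 (chr21:41420308-41420607, plus strand), EPSTI1 (chr13:42992192-42992491, minus strand) and BST2 (chr19:17405581-17405880, minus strand). Capitals mark each match to the ISRE core on either strand, and each sequence reads 5′ to 3′ on the strand of its gene.
IFI6: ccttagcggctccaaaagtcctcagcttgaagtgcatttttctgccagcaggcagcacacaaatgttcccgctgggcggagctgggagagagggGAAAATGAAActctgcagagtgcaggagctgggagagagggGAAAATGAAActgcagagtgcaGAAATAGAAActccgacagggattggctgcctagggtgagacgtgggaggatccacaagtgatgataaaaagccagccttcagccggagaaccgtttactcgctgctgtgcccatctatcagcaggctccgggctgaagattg
ISG15: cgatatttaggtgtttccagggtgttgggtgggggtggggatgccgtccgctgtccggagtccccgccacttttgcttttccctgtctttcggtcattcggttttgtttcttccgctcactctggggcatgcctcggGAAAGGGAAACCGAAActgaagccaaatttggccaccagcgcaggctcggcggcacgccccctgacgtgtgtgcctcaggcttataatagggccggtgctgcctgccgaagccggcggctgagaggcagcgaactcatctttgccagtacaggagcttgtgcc
IFIT1: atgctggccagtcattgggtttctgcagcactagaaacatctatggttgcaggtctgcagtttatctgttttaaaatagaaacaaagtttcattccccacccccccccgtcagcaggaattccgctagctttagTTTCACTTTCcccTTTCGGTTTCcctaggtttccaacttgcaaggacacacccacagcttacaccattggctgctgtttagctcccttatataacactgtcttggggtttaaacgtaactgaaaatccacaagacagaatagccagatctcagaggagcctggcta
IFIT5: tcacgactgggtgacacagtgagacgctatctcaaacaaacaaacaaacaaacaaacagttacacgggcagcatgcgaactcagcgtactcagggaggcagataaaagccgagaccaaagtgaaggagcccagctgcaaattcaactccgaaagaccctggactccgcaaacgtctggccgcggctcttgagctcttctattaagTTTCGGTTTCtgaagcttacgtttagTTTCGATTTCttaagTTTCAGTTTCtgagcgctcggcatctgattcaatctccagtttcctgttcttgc
LGALS3BP: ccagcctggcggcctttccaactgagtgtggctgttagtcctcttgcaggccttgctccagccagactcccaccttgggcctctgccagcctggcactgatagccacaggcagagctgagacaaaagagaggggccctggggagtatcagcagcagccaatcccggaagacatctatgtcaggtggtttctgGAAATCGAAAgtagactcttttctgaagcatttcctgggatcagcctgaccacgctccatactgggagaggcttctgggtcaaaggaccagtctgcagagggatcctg
MX1: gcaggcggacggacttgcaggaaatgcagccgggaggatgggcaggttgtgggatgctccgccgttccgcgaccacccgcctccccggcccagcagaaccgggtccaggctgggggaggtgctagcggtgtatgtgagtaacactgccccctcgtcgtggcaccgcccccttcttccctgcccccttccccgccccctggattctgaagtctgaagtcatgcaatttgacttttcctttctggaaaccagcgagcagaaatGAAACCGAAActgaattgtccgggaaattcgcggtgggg
EPSTI1: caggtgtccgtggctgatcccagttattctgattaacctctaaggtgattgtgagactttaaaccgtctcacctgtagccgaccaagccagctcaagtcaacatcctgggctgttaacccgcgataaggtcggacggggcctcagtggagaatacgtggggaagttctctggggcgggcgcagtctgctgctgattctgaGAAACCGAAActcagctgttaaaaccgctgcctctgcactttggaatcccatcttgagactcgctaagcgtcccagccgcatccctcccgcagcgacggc
BST2: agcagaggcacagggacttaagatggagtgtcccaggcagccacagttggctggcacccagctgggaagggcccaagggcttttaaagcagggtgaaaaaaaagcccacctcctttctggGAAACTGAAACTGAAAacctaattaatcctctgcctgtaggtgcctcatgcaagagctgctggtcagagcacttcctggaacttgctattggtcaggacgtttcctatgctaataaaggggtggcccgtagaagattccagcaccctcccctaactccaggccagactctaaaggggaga
The first 6 belong to genes that were higher with TR1, EPSTI1 to the gene that was lower with TR1 than with wild type, and BST2 to a gene whose level differed little between groups. All 8 hold at least 1 match. Among the tested genes with a promoter entry, the core was in 11 of the 13 that were called higher with TR1 than with the control and in 11 of the other 20. The same split was 12 of 15 against 10 of 18 for TR1 against wild type, and 5 of 7 against 17 of 26 for TR2 against wild type.

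Across the 4 groups the interferon-stimulated genes tended to be lowest with wild-type GATA3, higher in the control, higher again with TR2 and highest with TR1. The group means followed exactly this order in 18 of the 42 tested genes (42.9%), against 9.41% of all 14881 tested genes. TR1 had the highest mean for 31 of the 42 (73.8%, against 36.0% of all genes), and wild type had the lowest mean for 25 (59.5%, against 25.9%). In 17 of the 42 genes (40.5%) all 4 TR1 and TR2 libraries lay above all 4 control and wild-type libraries, against 8.42% of all genes, and in 0 they all lay below, against 11.4%. The median of the 42 genes relative to the control mean was 0.45 and 0.63 on the log2 scale in the TR1 libraries, 0.25 and 0.30 in the TR2 libraries and -0.077 and -0.10 in the wild-type libraries. Over all tested genes the same median lay within 0.016 of 0 in each library. The map of all 42 genes by library shows this order from left to right, with IRF1, IFI6, ISG15, IFIT1, IFIT5 and LGALS3BP blue with wild type and red with both truncated forms.

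**Figure D1:**
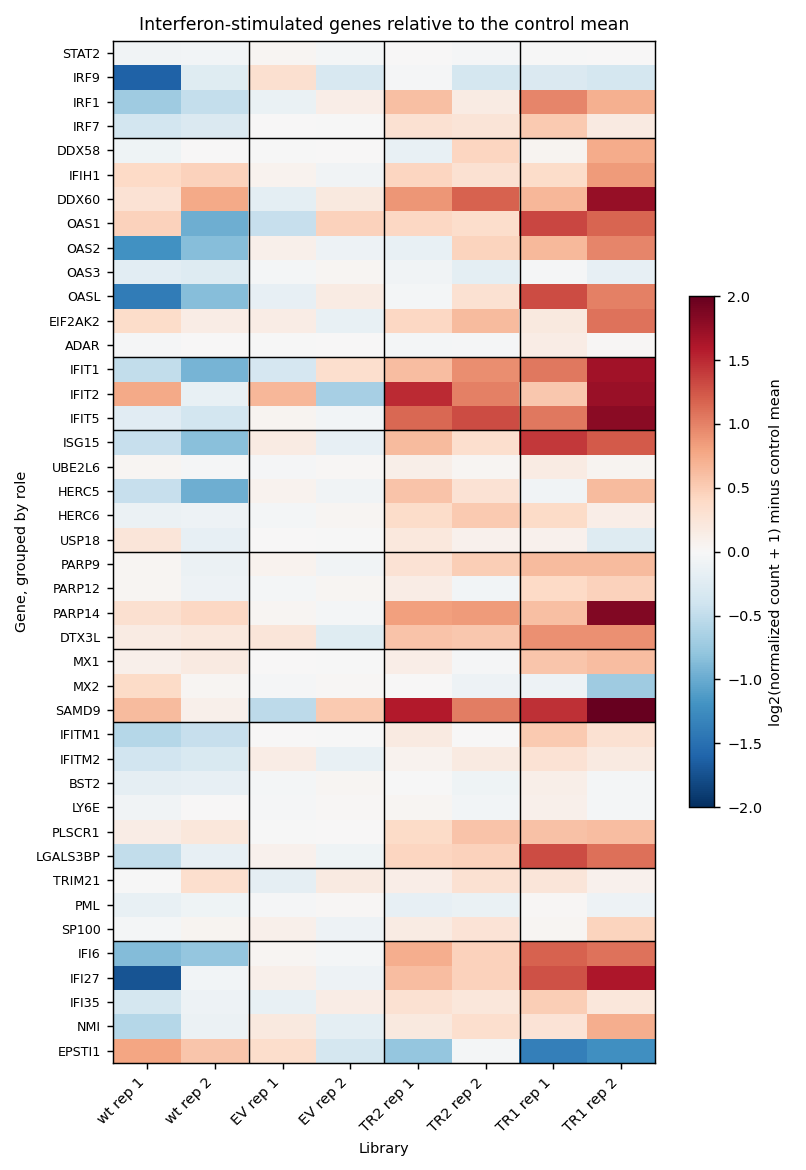
Level of the 42 tested interferon-stimulated genes (rows, grouped by role) in the 8 libraries (columns), as log2(normalized count + 1) minus the mean of the control libraries, with colours limited to 2 in either direction. Most rows turn red from the wild-type libraries on the left to the TR1 libraries on the right. STAT2, ADAR, LY6E and PML stay near white, whereas EPSTI1 and, more weakly, MX2 run the other way.

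Among the transcription factors, IRF1 and IRF7 followed the order of the groups and STAT2 did not. IRF1 (ENSG00000125347, chromosome 5, 132481609 to 132490798 on GRCh38), an activator that is itself induced by interferons, was counted at 40.8 and 48.8 with the control plasmid, 27.0 and 32.0 with wild-type GATA3, 89.2 and 73.6 with TR1, and 68.3 and 50.1 with TR2. No group overlapped another, from wild type at the bottom to TR1 at the top. IRF7 (ENSG00000185507, chromosome 11, 612553 to 615999), which drives transcription of interferon alpha genes, was counted at 161 and 158 with the control plasmid, 123 and 131 with wild-type GATA3, 231 and 181 with TR1, and 197 and 191 with TR2. Both truncated forms lay above the control and the control above wild type, while TR1 and TR2 overlapped. STAT2, a part of the interferon complex, was counted at 1059 and 998 with the control plasmid, 982 and 986 with wild-type GATA3, 1023 and 1032 with TR1, and 1030.2 and 1016 with TR2, with the wild-type libraries lowest by a narrow margin and the other groups overlapping. IRF9, the DNA-binding part of that complex, was counted between 2.89 and 14.0, with all groups overlapping. Another annotated gene on the same strand covers 93.5% of the exon length of IRF9, so its count is uncertain, and genes on the opposite strand cover 15.3% and 5.99% of that of IRF1.

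The IFI genes and others differed in their order, and IFI6 alone among them had 4 separate groups. IFI6 (ENSG00000126709, chromosome 1, 27666061 to 27672218), a small membrane protein with anti-apoptotic activity, was counted at 302 and 284 with the control plasmid, 161 and 171 with wild-type GATA3, 665 and 625 with TR1, and 487 and 403 with TR2. The 4 groups were separate, and each TR1 library stood at more than 3 times each wild-type library. IFI27 (ENSG00000165949, chromosome 14, 94104836 to 94116698), a related mitochondrial protein gene, was much lower, at 12.9 and 11.0 with the control plasmid, 2.89 and 11.4 with wild-type GATA3, 30.1 and 38.5 with TR1, and 18.9 and 16.7 with TR2. Its TR1 libraries lay above all others, and the control and wild type overlapped. IFI35, which forms a complex with NMI, had 458 and 379.8 with TR1 and 403 and 380.5 with TR2, all above the control (293 and 362) and wild-type libraries (256 and 305). NMI ranged from 28.9 to 71.9, with its highest library in TR1 and its lowest in wild type. EPSTI1 (ENSG00000133106, chromosome 13, 42886388 to 42992271), an interferon-induced gene named for its part in contact between epithelium and stroma, went the other way, at 24.7 and 14.6 with the control plasmid, 33.7 and 28.5 with wild-type GATA3, 6.79 and 7.53 with TR1, and 10.8 and 18.6 with TR2. Its TR1 libraries were the lowest and its wild-type libraries the highest, with control and TR2 overlapping in between.

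In the ISG15 system, the modifier itself and the HERC genes varied more between libraries than UBE2L6 and USP18 did. ISG15 (ENSG00000187608, chromosome 1, 1001138 to 1014540), a ubiquitin-like protein that is joined to other proteins, was counted at 60.1 and 47.5 with the control plasmid, 38.5 and 29.7 with wild-type GATA3, 143 and 127 with TR1, and 83.6 and 67.7 with TR2. The 4 groups did not overlap. HERC6 (ENSG00000138642, chromosome 4, 88378739 to 88443111), a member of the HERC ligase family, was counted at 164 and 172 with the control plasmid, 155 and 156 with wild-type GATA3, 219 and 184 with TR1, and 217 and 241 with TR2. Both truncated forms lay above the control, and TR1 and TR2 overlapped. HERC5, the main ligase for ISG15 in human cells, was lowest with wild type (18.3 and 12.6) and otherwise ranged from 24.2 to 40.2. The conjugating enzyme UBE2L6 ranged only from 1262 to 1438, and USP18, which removes ISG15 and dampens receptor signalling, from 119.6 to 171. Per kilobase of exon, the control mean of ISG15 was 57.2 normalized counts, against 718 for UBE2L6 and 67.3 for USP18.

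**Figure D2:**
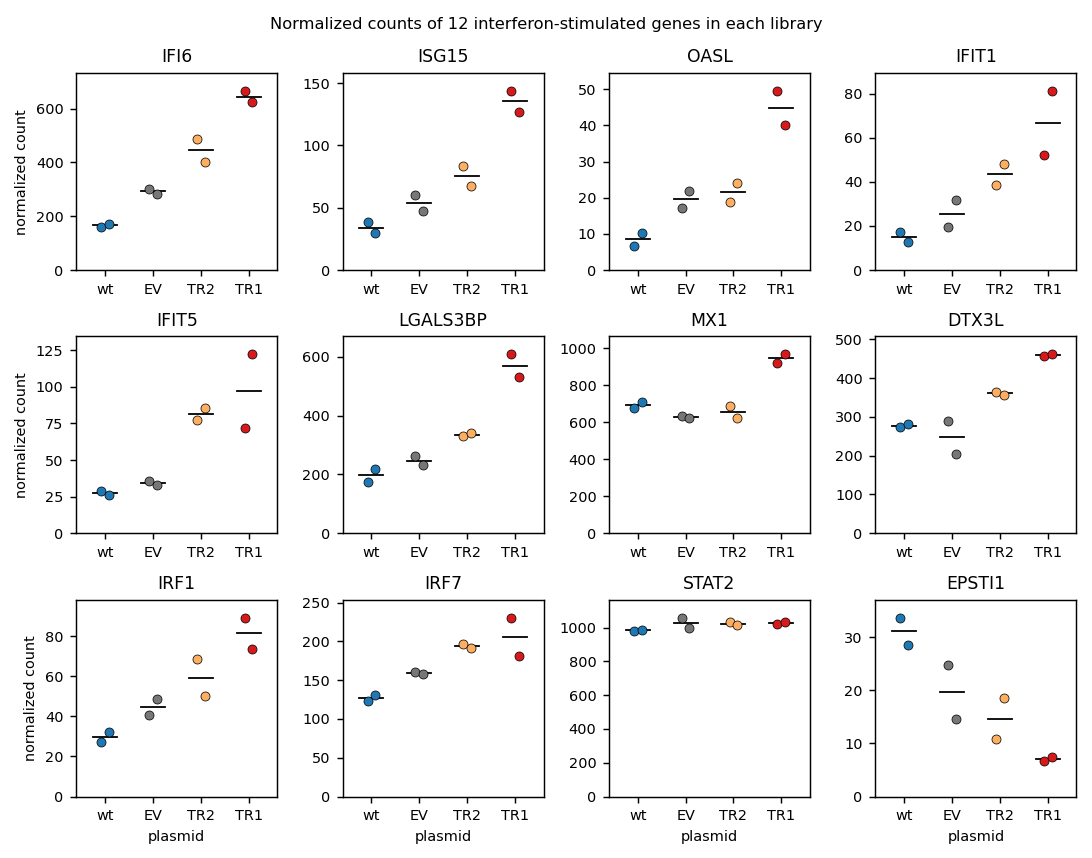
Normalized counts of 12 interferon-stimulated genes in each library (points) with the mean of the 2 libraries of each group (lines; EV is the control plasmid, wt is wild type), on a linear axis from 0. In IFI6, ISG15, IFIT1, IRF1 and LGALS3BP the points climb from wild type over the control and TR2 to TR1 with no overlap, MX1 stands apart in the TR1 libraries, STAT2 is level and EPSTI1 descends.

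Among genes for RNA sensing and RNA-acting enzymes, OASL and OAS2 were lowest with wild type and highest with TR1. OASL (ENSG00000135114, chromosome 12, 121019111 to 121039242), an oligoadenylate synthetase-like protein that enhances RIG-I signalling, was counted at 17.2 and 21.9 with the control plasmid, 6.74 and 10.3 with wild-type GATA3, 49.4 and 40.2 with TR1, and 18.9 and 24.1 with TR2. TR1 was above and wild type below all other libraries, and TR2 overlapped the control. OAS2 (ENSG00000111335, chromosome 12, 112978395 to 113011723), which makes oligoadenylates that activate RNase L, was counted at 49.4 and 42.7 with the control plasmid, 19.3 and 25.1 with wild-type GATA3, 72.7 and 91.2 with TR1, and 41.4 and 63.1 with TR2. The wild-type libraries were again the lowest and the TR1 libraries the highest. OAS1 had 43.6 and 38.5 with TR1 and between 7.99 and 23.2 in every other library, whereas OAS3 ranged from 1568 to 1919, with its highest library in the control. The RNA sensors DDX58 (RIG-I, 58.4 to 108.8), IFIH1 (MDA5, 107 to 206) and DDX60 (18.3 to 72.8) each had their highest count in TR1 replicate 2. So did the kinase EIF2AK2 (PKR), at 611 and 1139 with TR1 against 594 and 479 in the control. The RNA-editing enzyme ADAR ranged from 6948 to 7849. Per kilobase, the control means ran from 3.51 for DDX60 over 5.99 for OASL to 239 for OAS3 and 967 for ADAR.

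The IFIT genes, whose products bind viral RNA, lie next to each other on chromosome 10 and were low in the control. IFIT1 (ENSG00000185745, chromosome 10, 89392546 to 89406486) was counted at 19.3 and 31.7 with the control plasmid, 17.3 and 12.6 with wild-type GATA3, 52.4 and 81.1 with TR1, and 38.7 and 48.3 with TR2. All 4 groups were separate. IFIT5 (ENSG00000152778, chromosome 10, 89414586 to 89421001) was counted at 35.4 and 32.9 with the control plasmid, 28.9 and 26.2 with wild-type GATA3, 71.7 and 122 with TR1, and 77.3 and 85.4 with TR2. TR1 and TR2 overlapped each other and lay above the control, which lay above wild type. IFIT2 had between 3.66 and 23.4 and overlapped between TR1 and the control. IFIT3 had 8.73 and 17.6 with TR1 and 2.44 to 4.57 in the control and wild-type libraries, and did not pass the filter.

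The PARP genes and DTX3L were highest in TR1, and all but PARP12 lay higher in TR2 than in the control too. PARP9 (ENSG00000138496, chromosome 3, 122527924 to 122564577) and DTX3L (ENSG00000163840, chromosome 3, 122564238 to 122575203) encode partners in a ubiquitin ligase complex and are read from opposite strands of the same locus. PARP9 was counted at 257 and 232 with the control plasmid, 251 and 225 with wild-type GATA3, 378 and 378 with TR1, and 298 and 344 with TR2. DTX3L was counted at 289.9 and 205 with the control plasmid, 273 and 282 with wild-type GATA3, 458 and 461 with TR1, and 364 and 356 with TR2. In both genes TR1 lay above TR2, and TR2 above the control and wild type, which overlapped. Their exons share 217 bases, so a small part of their reads may be split between them. PARP14 (ENSG00000173193, chromosome 3, 122680618 to 122730840), an ADP-ribosyltransferase, was counted at 91.3 and 86.5 with the control plasmid, 112 and 119 with wild-type GATA3, 135 and 323 with TR1, and 157 and 161 with TR2. TR1 replicate 2 stood far above every other library, and TR1 replicate 1 lay below both TR2 libraries. PARP12, another ADP-ribosyltransferase, had 533 and 555 with TR1 and between 374 and 445 in all other libraries.

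Other antiviral effectors differed from gene to gene. MX1 (ENSG00000157601, chromosome 21, 41420304 to 41459214), a dynamin-like GTPase that blocks viral ribonucleoproteins, was counted at 635 and 623 with the control plasmid, 677 and 709.9 with wild-type GATA3, 923 and 967 with TR1, and 690.4 and 622 with TR2. The TR1 libraries stood apart and the other 6 lay between 622 and 709.9. SAMD9 (ENSG00000205413, chromosome 7, 93099513 to 93118023), an antiviral restriction factor, was counted at 10.7 and 23.2 with the control plasmid, 25 and 17.1 with wild-type GATA3, 45.6 and 83.7 with TR1, and 49.4 and 33.4 with TR2. All truncated libraries lay above all others, and TR1 and TR2 overlapped. MX2, the sister gene of MX1, ranged from 27.6 to 59.7, with its lowest library in TR1 and its highest with wild type.

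Among membrane and secreted proteins, LGALS3BP showed the widest separation. LGALS3BP (ENSG00000108679, chromosome 17, 78971238 to 78980109), a secreted galectin-binding glycoprotein, was counted at 262 and 232 with the control plasmid, 175 and 219 with wild-type GATA3, 608 and 530.4 with TR1, and 331 and 339.6 with TR2. No group overlapped another. PLSCR1 (ENSG00000188313, chromosome 3, 146515180 to 146544864), a phospholipid scramblase, was counted at 169.7 and 173 with the control plasmid, 191 and 199.7 with wild-type GATA3, 257 and 263 with TR1, and 223 and 256 with TR2. All truncated libraries lay above the wild-type libraries, which lay above the control. IFITM1 (ENSG00000185885, chromosome 11, 313506 to 315272), which restricts viral entry at membranes, was counted at 105 and 104 with the control plasmid, 70.3 and 75.3 with wild-type GATA3, 150.3 and 129 with TR1, and 119 and 105 with TR2. Wild type was below and TR1 above all other libraries, and TR2 overlapped the control. IFITM2 had 183 and 193 with wild type and between 216 and 292 in the other libraries. IFITM1, IFITM2 and IFITM3 are near-identical copies side by side on chromosome 11, so how reads were divided among them is uncertain. The tetherin gene BST2 ranged from 2428 to 2978 and LY6E from 5194 to 5852. Per kilobase these 2 were the most abundant of the set in the control, with means of 2686 for BST2 and 2528 for LY6E.

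The nuclear body proteins and TRIM genes gave no group that stood apart. PML ranged from 599.6 to 687, SP100 from 133 to 195, and TRIM21, a ubiquitin ligase that binds antibodies, from 76.2 to 109.6. TRIM22 had at most 3 reads in any library.

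The 9 genes that were not tested were IFIT3, RSAD2, CMPK2, SAMD9L, XAF1, IFITM3, TRIM22, IFI44 and IFI44L. Their summed level was 9.66 and 9.75 in the control, 10.6 and 11.4 with wild type, 38.8 and 67.8 with TR1 and 25.2 and 15.8 with TR2. IFI44L had 0 reads in all libraries but the TR1 ones, with 1 read in each. XAF1, an inducible apoptosis factor, had 0 reads in the control and 1 and 9 reads in TR1 replicates 1 and 2. IFI44 had 0 reads with wild type, 2 and 17 in TR1 replicates 1 and 2, and 3 and 0 in the control, so the level with TR1 rests on replicate 2 in both genes. RSAD2, which encodes the antiviral enzyme viperin, reached at most 1.94.

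TR1 was compared with the control first. In the fit over all genes, 14 of the 42 interferon-stimulated genes were higher and 0 lower with TR1 than with the control, where 4.91% of all genes were called higher, 5.69% lower and 10.6% in either direction. The median log2 fold change of the 42 was 0.47, against 0.016 over all genes. The rises on the log2 scale were SAMD9 (1.90 ± 0.42, limma adjusted p = 0.0244), IFIT5 (1.43 ± 0.25, limma adjusted p = 0.00887), IFIT1 (1.36 ± 0.32, limma adjusted p = 0.0314) and ISG15 (1.32 ± 0.21, limma adjusted p = 0.00535). They were followed by PARP14 (1.22 ± 0.32, limma adjusted p = 0.0466), LGALS3BP (1.20 ± 0.14, limma adjusted p = 0.000991), OASL (1.16 ± 0.30, limma adjusted p = 0.0418) and IFI6 (1.14 ± 0.12, limma adjusted p = 0.000611). Each of these is more than a doubling. Smaller rises were seen for DTX3L (0.91 ± 0.15, limma adjusted p = 0.00649), IRF1 (0.85 ± 0.22, limma adjusted p = 0.0459), PARP9 (0.63 ± 0.12, limma adjusted p = 0.0114), PLSCR1 (0.60 ± 0.11, limma adjusted p = 0.0129), MX1 (0.59 ± 0.084, limma adjusted p = 0.00324) and PARP12 (0.43 ± 0.10, limma adjusted p = 0.0332). By role, all 4 PARP and DTX3L genes rose, as did 2 of 3 tested IFIT genes, 1 of 5 in the ISG15 system, 1 of 9 RNA sensors and RNA-acting enzymes and 1 of 4 transcription factors. Values missed the threshold for EPSTI1 (-1.30 ± 0.36, limma adjusted p = 0.0522), IFIH1 (0.61 ± 0.17, limma adjusted p = 0.0582), DDX60 (1.20 ± 0.36, limma adjusted p = 0.0685), OAS2 (0.81 ± 0.26, limma adjusted p = 0.0795) and IRF7 (0.35 ± 0.14, limma adjusted p = 0.141). STAT2 differed by less than its replicates do (fold 0.999, 95% limits 0.895 and 1.12), and IRF9 gave -0.32 ± 0.49, limma adjusted p = 0.695. Both TR1 libraries lay above both control libraries in 29 of the 42 genes and below in 2, where 26.3% of all genes lay above and 26.5% below.

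The calls of IFI6, ISG15, LGALS3BP and MX1 against the control held under all 11 alternative settings and without any 1 of the 8 libraries. The other 10 were lost in at least 1 of these. Without control replicate 1, IFIT5, PLSCR1, SAMD9, PARP14, PARP12, IFIT1, OASL and IRF1 were lost (limma adjusted p from 0.0516 to 0.206), which left 6 calls. Without control replicate 2, 7 calls were left, with IFIT5, PLSCR1, PARP9, OASL, IRF1, PARP12 and PARP14 lost (0.0631 to 0.182). OASL, IFIT1, PARP12, IRF1 and PARP14 were lost without wild-type replicate 1 (0.0513 to 0.0875), without wild-type replicate 2 (0.0512 to 0.0880) and without TR2 replicate 1 (0.0510 to 0.0894), and the same 5 but PARP12 without TR2 replicate 2 (0.0616 to 0.0890). Without TR1 replicate 1, IRF1 (0.0582) and OASL (0.0651) were lost and 22 of the 42 genes were called, where 34.7% of all genes were. Without TR1 replicate 2, IFIT1 (0.0791) was lost and 15 were called, where 11.3% of all genes were. With the libraries of these 2 groups alone, those 4 calls remained and the other 10 were lost (0.0548 to 0.164).

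**Figure D3:**
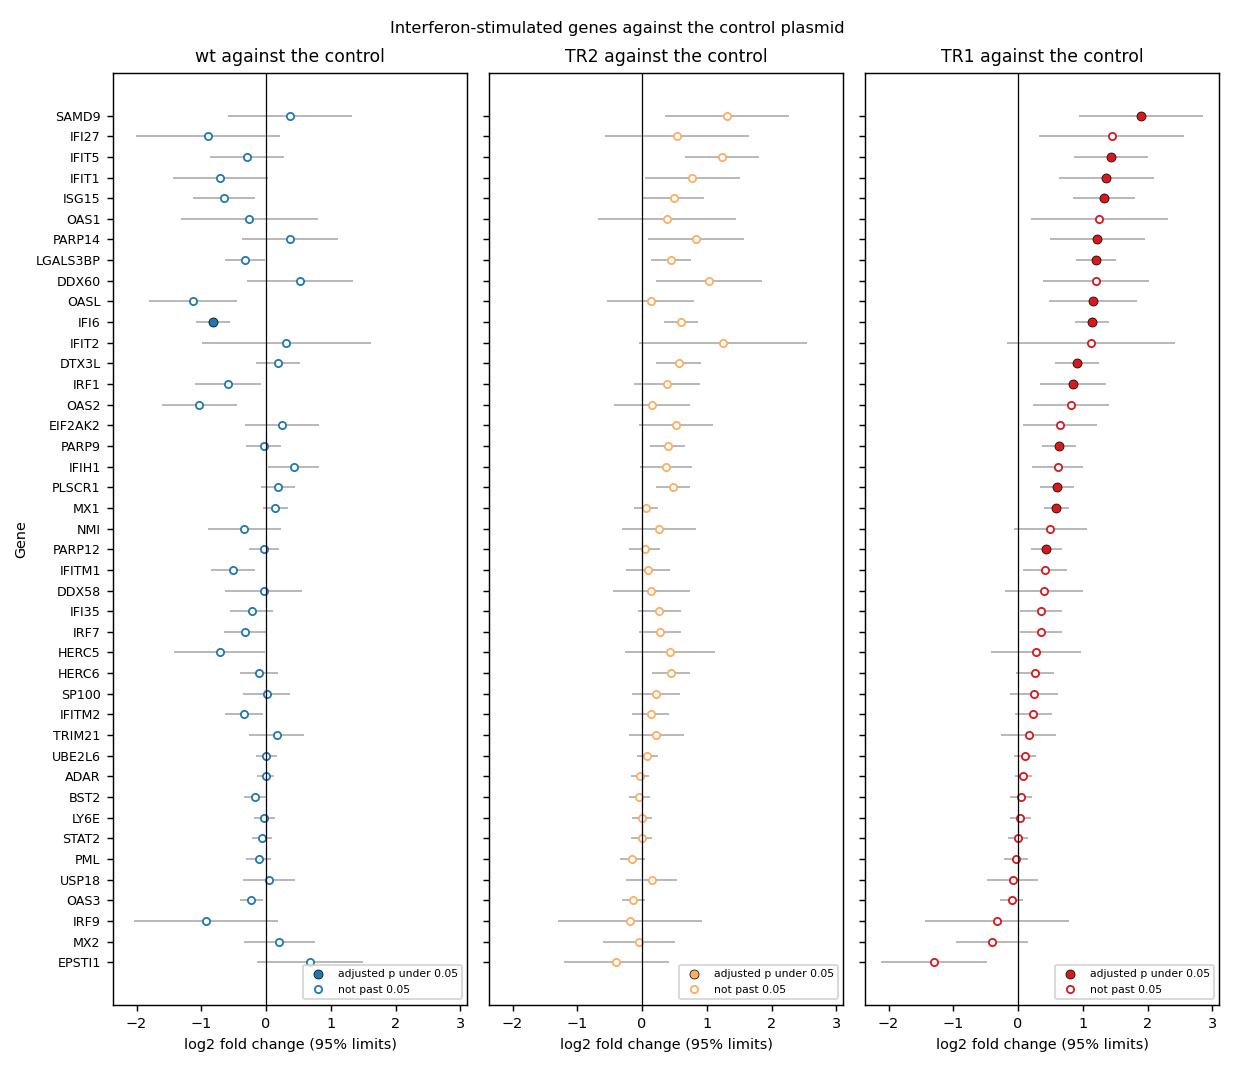
Log2 fold change of the 42 tested genes against the control plasmid for wild type, TR2 and TR1, with 95% limits from the fit over all 8 libraries, ordered by the TR1 value. Filled points passed an adjusted p of 0.05, which 1 gene did with wild type, 0 with TR2 and 14 with TR1, and all 3 panels share the same control libraries.

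The widest differences were between TR1 and wild-type GATA3, where 19 of the 42 genes were higher with TR1 and 1 was lower. Of all genes, 7.6% were called higher, 7.38% lower and 15% in either direction. The median log2 fold change of the 42 was 0.59, against 0.019 over all genes. The leading rises were IFI27 (2.33 ± 0.49, limma adjusted p = 0.0136), OASL (2.29 ± 0.30, limma adjusted p = 0.00129), IFIT1 (2.07 ± 0.32, limma adjusted p = 0.00337), ISG15 (1.97 ± 0.21, limma adjusted p = 0.000424) and IFI6 (1.95 ± 0.12, limma adjusted p = 1.52e-05). For IFI6 this is a 3.87-fold difference with 95% limits of 3.22 and 4.64. OAS2 (1.84 ± 0.26, limma adjusted p = 0.00196), IFIT5 (1.73 ± 0.25, limma adjusted p = 0.00231), SAMD9 (1.53 ± 0.42, limma adjusted p = 0.0424), LGALS3BP (1.53 ± 0.14, limma adjusted p = 0.000156), IRF1 (1.43 ± 0.22, limma adjusted p = 0.00339) and IFITM1 (0.93 ± 0.15, limma adjusted p = 0.00383) followed. DTX3L, IRF7, PARP9, IFITM2, IFI35, PARP12, MX1 and PLSCR1 rose by 0.41 to 0.73. EPSTI1 was the 1 gene that fell (-1.97 ± 0.36, limma adjusted p = 0.00698). Among the tested genes of each role, 4 of 6 membrane and secreted proteins, 3 of 5 IFI genes and others, 3 of 4 PARP and DTX3L genes, 2 of 4 transcription factors and 2 of 9 RNA sensors and RNA-acting enzymes rose. No TRIM or nuclear body gene was called, at 0 of 3 with 0 at an unadjusted p under 0.05 and 0 with voom weights. Both TR1 libraries lay above both wild-type libraries in 30 of the 42 genes and below in 2, against 26.5% and 26.3% of all genes.

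In this comparison IFI6, IFIT1, IFIT5, IFITM1, IRF1, ISG15, LGALS3BP, OAS2 and OASL kept their call in each setting that tested them and without any 1 library. Leaving out wild-type replicate 1 ended the calls of PARP12, EPSTI1, MX1, DTX3L, IRF7, SAMD9, IFITM2, IFI35 and PLSCR1 (limma adjusted p from 0.0639 to 0.222) and left 11, while OAS1 was gained, for 12 in all. Leaving out wild-type replicate 2 ended those of MX1, IFI35, PARP9, IRF7, DTX3L, IFITM2, PARP12, PLSCR1 and SAMD9 (0.0570 to 0.25) and left 11. IFI35, PLSCR1 and SAMD9 were lost without TR2 replicate 1 (0.0615 to 0.0690) or TR2 replicate 2 (0.0610 to 0.0677), PLSCR1 and SAMD9 without TR1 replicate 2 (0.0551 to 0.0851), and PLSCR1 without control replicate 1 (0.0702) or control replicate 2 (0.0705). Without TR1 replicate 1, 29 of the 42 genes were called, where 31.9% of all genes were. IFI27 was lost with the libraries of these 2 groups alone (0.0739).

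TR2 against wild type shares no library with TR1 against the control, but takes its spread from the same fit over all 8 libraries. It gave 10 of the 42 genes higher and 0 lower, where 2.75% of all genes were called higher, 2.49% lower and 5.24% in either direction. The median of the 42 was 0.47, against 0.0080 over all genes. Rises were found for IFIT5 (1.53 ± 0.25, limma adjusted p = 0.00957), IFIT1 (1.49 ± 0.32, limma adjusted p = 0.0325), IFI6 (1.41 ± 0.12, limma adjusted p = 0.000294), OASL (1.26 ± 0.30, limma adjusted p = 0.0463) and OAS2 (1.18 ± 0.26, limma adjusted p = 0.0337). ISG15 (1.13 ± 0.21, limma adjusted p = 0.017), IRF1 (0.97 ± 0.22, limma adjusted p = 0.0424), LGALS3BP (0.77 ± 0.14, limma adjusted p = 0.013), IRF7 (0.60 ± 0.14, limma adjusted p = 0.0439) and HERC6 (0.55 ± 0.13, limma adjusted p = 0.0446) rose too. IFI6, IFIT1, IFIT5, IRF1, ISG15, LGALS3BP and OASL were called both here and in TR1 against the control, which is 50% of the 14 and 70% of the 10. The overlap of these comparisons over all genes is not given here. Both TR2 libraries lay above both wild-type libraries in 29 of the 42 genes and below in 3, against 30.2% and 28.5% of all genes.

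IFI6 kept its TR2 call against wild type in each of the 11 settings and without any 1 library, and was the 1 call left when TR2 replicate 1 (others at a limma adjusted p of 0.0600 to 0.327), TR2 replicate 2 (0.0725 to 0.293) or wild-type replicate 1 (0.0518 to 0.283) was removed. Without wild-type replicate 2, IFIT5, OASL, OAS2, IRF1, ISG15, IRF7, HERC6 and IFIT1 were lost (0.0917 to 0.241). OAS2, IRF1, OASL, HERC6 and IRF7 were lost without control replicate 1 (0.0595 to 0.0787) or control replicate 2 (0.0592 to 0.0789). Without TR1 replicate 1 or TR1 replicate 2, 16 of the 42 genes were called, where 14.1% and 14.2% of all genes were. Without wild-type replicate 2, IFI27 was gained.

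Between TR2 and the control, 0 of the 42 genes passed the threshold, although 12 were higher and 0 lower at an unadjusted p under 0.05. Over all 14881 genes, 2563 were under that unadjusted p in either direction. Of all genes, 0.921% were called, 0.524% higher and 0.396% lower, and voom weights on the recovered reads also gave 0 of the 42. IFI6 came closest (0.60 ± 0.12, limma adjusted p = 0.0584), followed by IFIT5 (1.23 ± 0.25, limma adjusted p = 0.0671) and PLSCR1 (0.48 ± 0.11, limma adjusted p = 0.104). SAMD9 gave 1.31 ± 0.42, limma adjusted p = 0.202, ISG15 0.49 ± 0.21, limma adjusted p = 0.286 and MX1 0.059 ± 0.084, limma adjusted p = 0.729. For MX1 the 95% limits of the fold were 0.913 and 1.19. The median of the 42 was 0.26, against -0.0052 over all genes, and both TR2 libraries lay above both control libraries in 24 genes and below in 3, against 28.7% and 28.2% of all genes. Without TR1 replicate 1 or TR1 replicate 2, and with the libraries of these 2 groups alone, 11 of the 42 were called, all higher with TR2. Of all genes, 18.4%, 18.5% and 14.2% were called in these 3 settings. The 11 were DDX60, DTX3L, EIF2AK2, HERC6, IFI6, IFIT5, LGALS3BP, PARP14, PARP9, PLSCR1 and SAMD9. For IFI6 the limma adjusted p was 0.00181 without TR1 replicate 1 and 0.00162 without TR1 replicate 2. In this comparison 78 of all genes were called higher and 59 lower, which became 111 and 142 when each library was centred on its median.

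Wild-type GATA3 against the control gave a single call among the 42, the lower IFI6 (-0.82 ± 0.12, limma adjusted p = 0.0114), where 1% of all genes were called lower, 0.685% higher and 1.69% in either direction. It did not survive the removal of any 1 of the 4 libraries compared, with a limma adjusted p of 0.118 after control replicate 1 was left out, 0.0804 after control replicate 2, 0.131 after wild-type replicate 1 and 0.0935 after wild-type replicate 2. OASL (-1.13 ± 0.30, limma adjusted p = 0.122), OAS2 (-1.03 ± 0.26, limma adjusted p = 0.107) and ISG15 (-0.65 ± 0.21, limma adjusted p = 0.226) missed the threshold. At an unadjusted p under 0.05, 12 genes were lower and 1 was higher, where 1968 of all 14881 genes were under it in either direction. Without TR1 replicate 1 or TR1 replicate 2, 6 of the 42 genes were called, namely IFI6, IFIH1, IFITM1, OAS2, OAS3 and OASL, where 11.8% of all genes were called in either case. Of these, IFIH1 was higher with wild type (0.43 ± 0.17 in the fit over all 8 libraries), and the others were lower. Both wild-type libraries lay below both control libraries in 17 of the 42 genes and above in 7, against 25.2% and 28.4% of all genes.

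TR2 and TR1 were compared directly. LGALS3BP (-0.76 ± 0.14, limma adjusted p = 0.0358) and MX1 (-0.53 ± 0.084, limma adjusted p = 0.0219) were lower with TR2, and 0 of the 42 were higher, where 0.632% of all genes were called lower, 0.585% higher and 1.22% in either direction. The differences of OASL (-1.03 ± 0.30, limma adjusted p = 0.209), ISG15 (-0.84 ± 0.21, limma adjusted p = 0.134) and IFI6 (-0.54 ± 0.12, limma adjusted p = 0.0754) did not pass. For IFIT5 the fold was 0.869 with 95% limits of 0.585 and 1.29, so that a difference of that size in either direction was not detectable here. Both TR2 libraries lay below both TR1 libraries in 17 genes and above in 2, against 19% and 15.4% of all genes. The MX1 and LGALS3BP calls were lost without control replicate 1 (limma adjusted p of 0.0540 and 0.0644), control replicate 2 (0.0543 and 0.0639), TR2 replicate 1 (0.109 and 0.298) or TR2 replicate 2 (0.264 and 0.269). MX1 alone was lost without either wild-type library (0.0706 and 0.0713 for replicates 1 and 2). Without TR1 replicate 1, 6 of the 42 genes were called, where 10.6% of all genes were, and without TR1 replicate 2, 4, where 8.47% of all genes were.

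The difference between the TR1 libraries followed GC content in these genes. Of the 16 tested genes with a GC content under 45% in their longest transcript, 15 were higher in TR1 replicate 2 than in TR1 replicate 1, with a median log2 difference of 0.66. Of the 26 at or over 45%, 5 were higher, with a median of -0.15. Across the 42 genes Spearman's rho between GC content and this difference was -0.723, and across all 12875 tested genes with an annotation it was -0.561. This is a correlation across genes of 2 libraries, and genes are not independent replicates. PARP14, IFIT2, DDX60, EIF2AK2, SAMD9 and IFIT5 stand at the upper left of the plot of this difference, with a low GC content, and ISG15, IRF7 and LGALS3BP at the lower right. Against the control, the median log2 fold change of TR1 was 0.64 for the genes under 45% GC and 0.30 for those at or over it. Leaving out either TR1 library cannot show whether the calls of TR1 against the control rest on 1 replicate. TR1 then has 1 library and no spread of its own, and a larger share of all genes was called than in the main fit. With a length and GC trend of each library removed, 25 of the 42 genes were called in this comparison, including all 14. Of the 12875 genes tested in that setting, 19.5% were called.

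**Figure D4:**
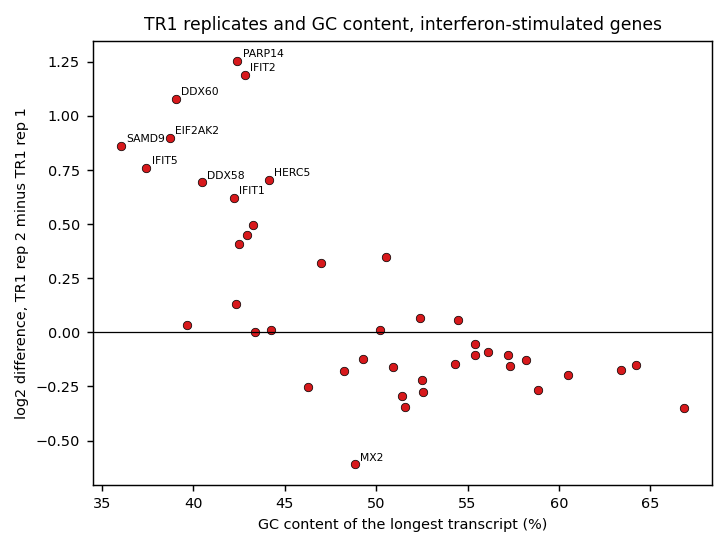
Log2 difference between TR1 replicate 2 and TR1 replicate 1 for each of the 42 tested genes against the GC content of its longest transcript in percent, with names for genes beyond 0.5. Of the 16 genes under 45% GC, 15 lie above 0 (median 0.66), and most at or over 45% lie below it (median -0.15).

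Upstream of these genes, the kinase JAK1 was higher with TR1, while no call was made for the receptors IFNAR1 and IFNAR2. JAK1 was counted at 2204 and 2209.9 with the control plasmid, 1950.0 and 2025 with wild-type GATA3, 5428 and 4812 with TR1, and 2488 and 2721 with TR2. Both TR1 libraries stood far above the other 6. It rose against the control (1.21 ± 0.077, limma adjusted p = 3.8e-05) and against wild type (1.36 ± 0.077, limma adjusted p = 1.17e-05), and was lower with TR2 than with TR1 (-0.97 ± 0.077, limma adjusted p = 0.000611), and these 3 calls held in all settings and without any 1 library. TYK2 ranged from 805 to 865, IFNAR1 from 767 to 1044 and IFNAR2 from 98.7 to 135. Against the control, TR1 gave -0.014 ± 0.074, limma adjusted p = 0.921 for TYK2, 0.29 ± 0.088, limma adjusted p = 0.0676 for IFNAR1 and -0.091 ± 0.14, limma adjusted p = 0.695 for IFNAR2. IFNAR1 passed when TR1 replicate 1 was left out (limma adjusted p = 0.00625) and ranged up to 0.306 in the other settings. Of the 9 receptor and kinase genes tested, JAK1 was the 1 called in these comparisons. It was also called in TR2 against wild type (0.39 ± 0.077, limma adjusted p = 0.0227), a call that was lost when any 1 of the control, wild-type or TR2 libraries was left out (adjusted p from 0.0504 to 0.199).

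Among STAT and IRF genes that are not among the 51, STAT3 (0.30 ± 0.072, limma adjusted p = 0.0332), IRF5 (0.71 ± 0.14, limma adjusted p = 0.0135) and IRF8 (limma adjusted p = 0.00203) were higher with TR1 than with the control. IRF8, a factor typical of blood cells, had 0 reads in the control and wild-type libraries and 19.4 and 15.1 with TR1, at least 5.01-fold higher than the control against a floor of 3 reads per library. IRF5 was counted at 139 and 146 with the control plasmid, 118 and 102 with wild-type GATA3, 254 and 215 with TR1, and 173 and 169.8 with TR2, and TR1 lay above all other libraries. The STAT3 call was lost without either control replicate (adjusted p = 0.113 and 0.180), either wild-type replicate (0.0759 and 0.0764) or either TR2 replicate (0.0722 and 0.0717), and that of IRF5 without control replicate 1 (0.0947) or control replicate 2 (0.0659). IRF8 kept its call in each setting that tested it. IRF3, which switches on interferon beta transcription once viral nucleic acid is sensed, was counted at 852 and 861 with the control plasmid, 749.5 and 791 with wild-type GATA3, 927 and 878 with TR1, and 799 and 792 with TR2. TR1 did not differ detectably from the control in IRF3 (0.076 ± 0.075, limma adjusted p = 0.527).

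**Figure D5:**
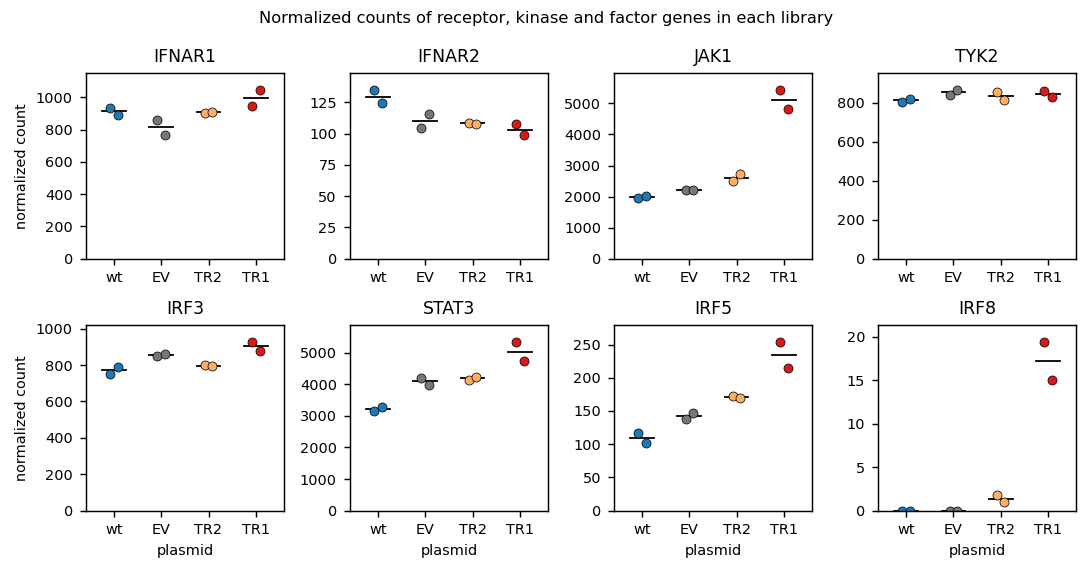
Normalized counts of 8 receptor, kinase and transcription factor genes in each library (points) with group means (lines), on a linear axis from 0. JAK1, STAT3, IRF5 and IRF8 are highest in the TR1 libraries, whereas TYK2 and IRF3 vary little between groups (EV is the control plasmid, wt is wild type).

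Of 13 interferon genes listed, 2 were in the table. IFNL1 and IFNL2 had at most 1 read in any library, and IFNB1 was not analysed here. None of the 9 genes for sensing of RNA and DNA passed in TR1 against the control, at 0 called with 5 higher at an unadjusted p under 0.05. Over all 14881 genes, 4337 were under that unadjusted p in either direction. Against wild type, 5 of the 9 sensing genes were called higher with TR1. These were MAVS (0.28 ± 0.067, limma adjusted p = 0.0242), TMEM173, which encodes STING (0.75 ± 0.18, limma adjusted p = 0.0235), TRIM25 (0.34 ± 0.067, limma adjusted p = 0.0105), DHX58 (0.38 ± 0.10, limma adjusted p = 0.0392) and TLR3 (2.07 ± 0.56, limma adjusted p = 0.0394). All 5 failed to pass once wild-type replicate 1 (limma adjusted p from 0.0823 to 0.232) or replicate 2 (0.0520 to 0.198) was left out. MAVS, DHX58 and TLR3 were lost without TR2 replicate 1 (0.0507 to 0.0643) or TR2 replicate 2 (0.0502 to 0.0652), DHX58 without control replicate 1 (0.0664) or control replicate 2 (0.0663), and TMEM173 (0.0560) and TLR3 (0.100) without TR1 replicate 2. The 5 negative regulators tested, among them SOCS3, PIAS1 and PTPN1, gave 0 calls in each comparison.

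A further list of 35 interferon-induced genes that are not among the 51 was read in the same way, and 26 of them were tested. With TR1 6 were higher than in the control and 0 lower. They were the caspase gene CASP1 (1.93 ± 0.39, limma adjusted p = 0.0163), LAMP3 (1.47 ± 0.27, limma adjusted p = 0.0108), APOL6 (1.16 ± 0.19, limma adjusted p = 0.0059), BATF2 (1.13 ± 0.28, limma adjusted p = 0.0361), PARP10 (0.44 ± 0.10, limma adjusted p = 0.0271) and ZNFX1 (0.28 ± 0.076, limma adjusted p = 0.0488). Their median fold change was lower than that of the 42, at 0.20 over the 26 genes. Without control replicate 1, APOL6 (adjusted p = 0.0528), BATF2 (0.124), PARP10 (0.136) and ZNFX1 (0.199) were lost, and without control replicate 2, LAMP3 (0.0762), CASP1 (0.0961), PARP10 (0.122), BATF2 (0.157) and ZNFX1 (0.165). BATF2, PARP10 and ZNFX1 were lost without either wild-type replicate (0.0610 to 0.0934), PARP10 and ZNFX1 without either TR2 replicate (0.0629 to 0.0995), and CASP1 (0.102) and BATF2 (0.104) without TR1 replicate 2. Against wild type 8 of the 26 were higher with TR1 and 0 lower, and of these APOL6 and PARP10 kept their call without any 1 library. The other 6 were CASP1, ZNFX1, C19orf66, HELZ2, GBP1 and LAMP3, of which HELZ2, GBP1 and LAMP3 were lost without wild-type replicate 1 (0.0544 to 0.196) and all but HELZ2 without wild-type replicate 2 (0.0529 to 0.205). GBP1 and LAMP3 were also lost without TR1 replicate 2 (0.0503 and 0.0693, LAMP3 first), TR2 replicate 1 (0.0587 and 0.0639) or TR2 replicate 2 (0.0590 and 0.0661), and LAMP3 without TR1 replicate 1 (0.0836). With TR2 1 was higher than with wild type, APOL6 (1.26 ± 0.19, limma adjusted p = 0.00572). Its adjusted p was 0.0658 and 0.0683 after TR2 replicate 1 or 2 was left out, and 0.0667 after wild-type replicate 2 was. APOL6 was counted at 64.4 and 71.9 with the control plasmid, 51.1 and 46.8 with wild-type GATA3, 129 and 182 with TR1, and 118 and 119.7 with TR2, with all truncated libraries above all others. The chemokine gene CXCL10 and the guanylate-binding protein gene GBP5 had at most 1 read in any library.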

How the data were processed

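RNA-seq of 8 T47D libraries was analysed. The authors deposited log2(normalized count + 1) values per gene symbol. Per the submitters' processing notes, TopHat, HTSeq and hg38 were used. Which annotation and strand setting served for counting, and how libraries were scaled, is not given in the sources used here. Undoing the log gave multiples of 1 step per library, never over 0.00122 reads from a whole number, and thus the reads.

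Genes at a normalized count of 10 or more in 2 or more libraries (14881) entered limma 3.58.1, run in R 4.3.3 (lmFit, contrasts, eBayes with a trend), with all 8 libraries in 1 fit, group as the only term and 4 residual degrees of freedom. Tests were two-sided, with Benjamini-Hochberg adjustment over all genes within a comparison and calls made under 0.05. Each log2 fold change is of value + 1, which understates the change of low genes, and is given with its standard error. The script was tested on simulated data. The members and lists were chosen with earlier results of these data known. Every member past the threshold is named, with values in every library for up to 12 per comparison, and a fixed few whatever their values. Coordinates and GC contents are from GENCODE 29 (GRCh38, 51 of 51 symbols matched), and promoters from RefSeq, matched by symbol. Some genes are not reported here. Floors of 3 reads cover counting error only. The alternatives were other variance priors, filters, scalings, a pseudocount of 10, fits of the groups compared alone, a replicate block and each library left out. Limma with voom weights on the recovered reads and the removal of a length and GC trend were added after seeing the data.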

Additional observations from a re-analysis of the deposited data

How the results depend on the processing

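Each group had 2 libraries, so the spread rests on 4 residual degrees of freedom and depth limits the genes under about 10 normalized counts. Among the genes followed through the settings, none changed direction where it was called in the main fit or in the other setting. Small differences that were not called did so at times. For wild type against the control, STAT2 went from -0.063 to 0.016 and TYK2 from -0.068 to 0.041 with the length and GC trend removed. The number of the 42 genes called ran, with 1 library left out, from 6 to 22 for TR1 against the control, 11 to 29 for TR1 against wild type, 1 to 16 for TR2 against wild type, 0 to 11 for TR2 against the control, 0 to 6 for wild type against the control and 0 to 6 for TR2 against TR1. With no trend in the prior variance it was 9 for TR1 against the control, 6 for TR2 against wild type and 0 for TR2 against TR1. With no filter, which tests all 51, the numbers for these comparisons were 9, 4 and 1, where 4.15%, 2.1% and 0.465% of all genes were called. A filter at 100, which tests fewer genes (26), gave 8 for TR1 against the control, 12 for TR1 against wild type and 6 for TR2 against wild type. The shares of all genes with that filter were 12.1%, 16.6% and 5.98%. With only the libraries of the groups compared, which gives fewer degrees of freedom, the counts were 4 for TR1 against the control, 13 for TR1 against wild type, 21 for TR2 against wild type, 11 for TR2 against the control, 3 for wild type against the control and 0 for TR2 against TR1. For TR2 against the control, robust empirical Bayes gave 2, median centring 1, quantile normalization 1 and the length and GC trend removed 4. In the same order, 1.35%, 1.7%, 1.29% and 2.94% of all genes were called. Median centring gave 2 for wild type against the control, quantile normalization 6 and voom weights 4 for TR2 against wild type, and the length and GC trend removed 25 for TR1 against the control. The shares of all genes beside these were 2.22%, 5.11%, 4.96% and 19.5%. The cause was not tested where none is given.

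Samples with the same replicate number deviated together in the pair of TR1 and TR2 (correlation 0.148) and in no other pair over 0.1. Whether the numbers pair the libraries is not given in the labels, and correlations of this size do not settle it. With the replicate block, 12 genes were called for TR1 against the control, 18 for TR1 against wild type, 6 for TR2 against wild type, 0 for TR2 against the control, 1 for wild type against the control and 0 for TR2 against TR1.

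Over all genes, the groups compared alone gave 483 calls in place of 1578 for TR1 against the control, 1042 in place of 2229 for TR1 against wild type, 2971 in place of 780 for TR2 against wild type, 2115 in place of 137 for TR2 against the control, 1313 in place of 251 for wild type against the control and 59 in place of 181 for TR2 against TR1. Fewer genes (12875) entered the fit with the length and GC trend removed. It gave 2511, of which 1575 were higher and 936 lower, against 731 and 847, for TR1 against the control. It gave 1246 for TR2 against wild type, 379 for TR2 against the control, 451 for wild type against the control and 364 for TR2 against TR1. For TR2 against the control, no filter gave 91 and median centring 253, and no trend gave 114 for TR2 against TR1. The planned count test was not run, because the deposited unit is log2.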
